A study of Rattus norvegicus with 22 samples.

Results

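The subject is a list of 37 astrocyte genes in the nucleus accumbens (NAc) of alcohol drinking rats. The members were chosen by name from genes widely used to mark astrocytes, and each was looked up by its exact symbol among the 17310 genes of the count files, where 36 of the 37 were found. Hepacam, a cell adhesion protein that binds Mlc1, was not analysed here. A filter on low counts, described with the methods, kept 36 members for testing in experiment 1 and 35 in experiment 2, where Id3 fell below it. PolyA+ RNA from the NAc, core and shell together, of 22 adult male outbred Wistar rats was sequenced as 1 library per rat, in 2 experiments. In experiment 1, 5 rats drank only water and 5 chose freely between water and 6 v/v % ethanol (EtOH) for 8 weeks. All 12 rats of experiment 2 had the same choice of 6% EtOH and water for 4 weeks, and again for 2 weeks after a gavage period of 3 weeks in which 6 rats received EtOH into the stomach (30 v/v %, at 2.5 g/kg on 2 occasions a day) and 6 received water. Rats were killed within minutes of losing access to EtOH. The controls of experiment 2 therefore drank EtOH as well, and a group without EtOH exists only in experiment 1. EtOH intake from the bottles was voluntary, so intake was not fixed by the design.

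Astrocytes are glial cells that take up glutamate and GABA from around synapses, buffer potassium, move water and bicarbonate, couple to each other through gap junctions and supply neurons with metabolites, lipids and matrix proteins. When they become reactive after injury, the intermediate filament genes Gfap and Vim are the classical genes to rise. In the NAc, a ventral striatal region of the reward system, glutamate uptake by astrocytes shapes the excitatory input to the spiny projection neurons. Reads of all 36 members in the files were counted in both experiments. The levels of the members summed to between 23052 and 26984 CPM (read counts scaled to the normalized number of reads on genes, by the TMM method) in experiment 1 and to between 13630 and 20472 CPM in experiment 2. In a bulk sample, fewer cells of a type and less RNA per cell cannot be told apart.

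Promoter sequences are shown for 5 members on which the results turn and for which RefSeq lists a single start: Gfap as the reference astrocyte gene, Fabp7 and Vim with the lowest P-values in experiment 1, and Mfge8 and Slc4a4, whose levels ran in opposite directions across the rats of experiment 2. Each run is the 250 bases upstream of the RefSeq start in the rat build GRCr8, read 5′ to 3′ on the strand of the gene. Gfap lies on the minus strand at chr10:88361662-88361911, Fabp7 on the plus strand at chr20:37669356-37669605, Vim on the plus strand at chr17:81577011-81577260, Mfge8 on the minus strand at chr1:142489432-142489681 and Slc4a4 on the minus strand at chr14:19468283-19468532. Capitals mark matches, on either strand, to the motifs named after the sequences.
Gfap: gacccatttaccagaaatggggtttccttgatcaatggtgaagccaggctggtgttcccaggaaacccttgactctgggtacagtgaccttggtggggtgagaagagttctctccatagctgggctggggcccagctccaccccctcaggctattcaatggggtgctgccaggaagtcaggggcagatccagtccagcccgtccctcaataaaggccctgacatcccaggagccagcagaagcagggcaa
Fabp7: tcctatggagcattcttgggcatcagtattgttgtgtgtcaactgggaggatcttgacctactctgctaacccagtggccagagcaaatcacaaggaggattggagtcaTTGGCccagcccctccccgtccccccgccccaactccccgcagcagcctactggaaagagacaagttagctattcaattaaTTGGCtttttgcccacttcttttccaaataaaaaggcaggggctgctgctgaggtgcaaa
Vim: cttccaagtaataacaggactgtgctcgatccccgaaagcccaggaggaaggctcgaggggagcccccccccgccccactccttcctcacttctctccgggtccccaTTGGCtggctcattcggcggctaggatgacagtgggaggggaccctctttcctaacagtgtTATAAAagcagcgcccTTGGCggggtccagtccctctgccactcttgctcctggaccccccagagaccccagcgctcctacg
Mfge8: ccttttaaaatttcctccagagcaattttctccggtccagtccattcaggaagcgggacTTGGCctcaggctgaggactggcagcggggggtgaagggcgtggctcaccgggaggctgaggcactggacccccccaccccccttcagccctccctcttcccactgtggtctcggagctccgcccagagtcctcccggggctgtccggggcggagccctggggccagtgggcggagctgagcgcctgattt
Slc4a4: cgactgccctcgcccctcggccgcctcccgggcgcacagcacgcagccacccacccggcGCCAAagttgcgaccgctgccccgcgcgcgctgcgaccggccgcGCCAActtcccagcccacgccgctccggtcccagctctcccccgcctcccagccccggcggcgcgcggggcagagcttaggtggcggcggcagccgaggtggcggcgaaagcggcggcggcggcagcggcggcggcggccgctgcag
The motifs were the nuclear factor I core site TTGGC, the STAT site TTCNNNGAA, the SOX sites ACAAAG and ACAATG, the AP-1 site TGANTCA and the TATA box TATAAA, and matches of different motifs could overlap. The upstream sequences of Fabp7, Vim and Slc4a4 each held 2 nuclear factor I core sites, that of Mfge8 held 1, and that of Vim also held the TATA box letters. None of these letters stood in the 250 bases upstream of Gfap. Over windows from 250 bases before to 50 bases after the start, 34 members had at least 1 window in the RefSeq promoter table (44 windows in all), and 26 of them had a single window. The core site TTGGC stood in 61.4% of the 44 member windows and in 45.8% of 33469 windows of all genes. The other motifs stood in 4.5% against 8.9% (STAT), 13.6% against 18.8% (ACAAAG), 0% against 13.2% (ACAATG), 2.3% against 7.3% (AP-1) and 13.6% against 14.2% (TATA). The median GC content was 59.5% in the windows of the 26 members with a single window, with a range of 39.3 to 78.0%. It was 51.7% in all 33469 windows, which include those of genes with several starts. These shares describe the letters in the windows and were not tested.

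Between 2962291 and 5247386 reads per rat fell on genes in experiment 1, and between 6713617 and 8765472 in experiment 2. Reads that the counting program htseq-count assigned to no gene were taken as a share of these and the reads on genes (hereafter the outside share). Such reads need not lie outside annotated genes, since the counting options are not known. The outside share was 49.5% ± 0.996 in water rats and 49.5% ± 0.722 in EtOH rats (SD, n = 5 each). In experiment 2 it spread more widely and was 50.1% ± 3.09 after water gavage and 52.9% ± 3.42 after EtOH gavage (SD, n = 6 each). The 3 highest values, 58.0%, 56.4% and 54.5%, were those of EtOH gavage rats 1 and 2 and water gavage rat 1, and the next was 52.8%. For the main values of experiment 2 the result without these 3 libraries is given as well. Counts of every pair of rats within a group differed by more than sampling noise. The chi-square per degree of freedom ran from 2.67 to 7.83 in experiment 1 and from 9.60 to 120 in experiment 2, where the libraries were also deeper. Nothing in the sources says whether rats shared a litter or day.

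Experiment 1 asked whether astrocyte gene expression differs after free access to EtOH. No astrocyte gene passed an FDR of 0.05 (0 of 36), and neither did any of the 8655 genes tested (0%), by the quasi-likelihood test of edgeR, Benjamini-Hochberg adjusted over all tested genes. DESeq2 also called 0 members. At an unadjusted P under 0.05, 7 of 36 members differed (19.4%, against 5.56% of all tested genes), of which all 7 were higher in EtOH rats (3.02% of all genes) and 0 lower (2.54%). The 7 were Fabp7, Vim, Gjb6, Htra1, Dio2, Clu and Mlc1. The count was 4 without EtOH rat 3, and 1 when all 4 groups of both experiments shared one fit. The median log2 fold change of the members was 0.032 against -0.0013 over all genes, and 25 of 36 lay above 0 (69.4%, against 49.4% of all genes). That median ranged from -0.0044 without EtOH rat 5 to 0.064 without EtOH rat 2. The member values lay between -0.21 and 0.89, with a median SE of 0.077.

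Fabp7, the brain fatty acid binding protein of radial glia and astrocytes, separated the groups. Fabp7 measured 111, 117, 102, 108 and 132 CPM in the water rats 1 to 5 and 143, 137, 147, 133 and 144 CPM in the EtOH rats 1 to 5. Every EtOH rat lay above every water rat, by a narrow margin between water rat 5 and EtOH rat 4. The group means were 114 ± 11.4 against 141 ± 5.91 CPM (SD, n = 5 each), with a log2 fold change of 0.30 ± 0.074 (SE) at FDR = 0.544 (edgeR), and an exact permutation test gave P = 0.00794. That value (two-sided, like all such tests here) is the smallest that 5 against 5 rats allow. Fabp7 was the only member whose groups did not overlap (2.78% of members), and 0.451% of all tested genes stood apart in this direction.

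Of the 2 intermediate filament genes, Vim (vimentin) had the second lowest P-value of the members and Gfap (glial fibrillary acidic protein) was close to no difference. Vim measured 40.9, 79.8, 64.8, 62.1 and 96.4 CPM in the water rats 1 to 5 and 73.4, 131, 167, 121 and 119 CPM in the EtOH rats 1 to 5. All 5 EtOH rats were above the median of the water rats, but EtOH rat 1 lay among the water rats. The means of Vim were 68.8 ± 20.8 against 122 ± 33.3 CPM (SD, n = 5 each), with a log2 fold change of 0.82 ± 0.20 (SE) at FDR = 0.544 (edgeR), and an exact permutation test gave P = 0.0238. Gfap measured 457, 359.6, 415, 374 and 399 CPM in the water rats 1 to 5 and 606, 359, 333, 376 and 400.2 CPM in the EtOH rats 1 to 5. EtOH rat 1 had the highest Gfap level and the other 4 EtOH rats lay within or just below the range of the water rats. The means of Gfap were 401 ± 38.1 against 415 ± 109.7 CPM (SD, n = 5 each), with a log2 fold change of 0.047 ± 0.13 (SE) at FDR = 0.991 (edgeR), and an exact permutation test gave P = 0.913. Without EtOH rat 1 the Gfap value turned to -0.13. Vim is also expressed by endothelial, ependymal and mesenchymal cells, and Fabp7 by progenitor cells.

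**Figure D1:**
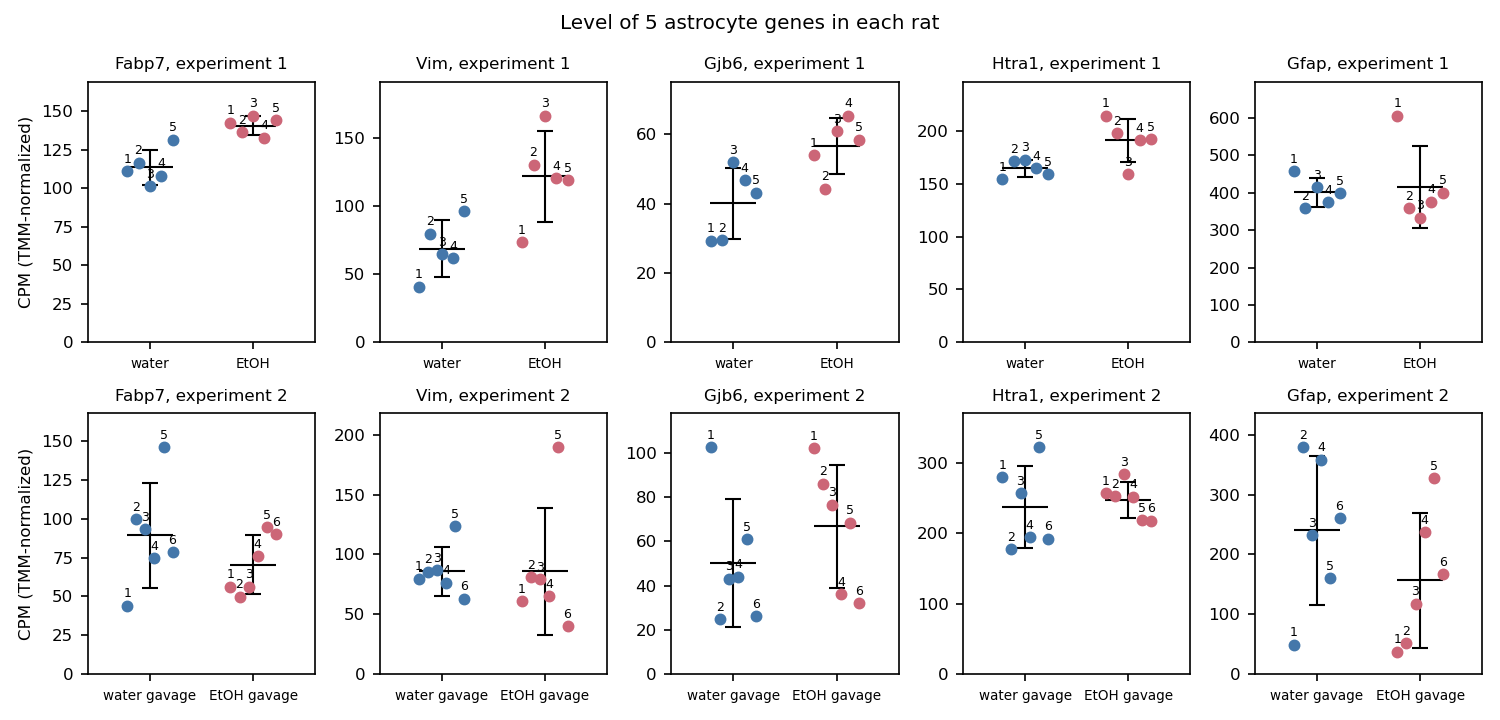
Normalized level (CPM, linear axis from 0) of Fabp7, Vim, Gjb6, Htra1 and Gfap in each rat of experiment 1 (top row) and experiment 2 (bottom row), with rat numbers beside the points, and bars for the mean ± SD of each group. In experiment 1 the EtOH rats lie between 133 and 147 CPM for Fabp7, above all water rats, while in the other panels the groups overlap.

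Among the genes for transport and cell contacts, Gjb6 (connexin 30, a gap junction protein) was higher in EtOH rats at an unadjusted P under 0.05. Gjb6 measured 29.4, 29.5, 52.0, 46.7 and 43.2 CPM in the water rats 1 to 5 and 53.9, 44.3, 61.0, 65.4 and 58.5 CPM in the EtOH rats 1 to 5. Water rats 1 and 2 were the lowest, and EtOH rat 2 fell within the range of the water rats. The means were 40.2 ± 10.3 against 56.6 ± 8.03 CPM (SD, n = 5 each), with a log2 fold change of 0.48 ± 0.16 (SE) at FDR = 0.825 (edgeR), and an exact permutation test gave P = 0.0317. Mlc1, a membrane protein of astrocyte endfeet, had means of 565 and 615 CPM in water and EtOH rats (log2 fold change 0.12 ± 0.054 SE, FDR = 0.866). The other gap junction gene, Gja1 (connexin 43), had a log2 fold change of 0.048 ± 0.079 (SE), and the water channel Aqp4 one of 0.0037 ± 0.067. The bicarbonate transporter Slc4a4, the sodium pump subunit Atp1b2 and the membrane protein Ttyh1 had values of -0.049, -0.11 and 0.062, none past an unadjusted P of 0.05.

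Slc39a12, a zinc importer, had the largest log2 fold change of the members in experiment 1. Slc39a12 measured 1.01, 1.86, 10.4, 11.6 and 17.9 CPM in the water rats 1 to 5 and 14.1, 19.0, 21.1, 14.6 and 14.3 CPM in the EtOH rats 1 to 5. Water rats 1 and 2 were the lowest, water rats 3 and 4 also lay below all EtOH rats, and water rat 5 lay within their range. The means were 8.54 ± 7.08 against 16.6 ± 3.21 CPM (SD, n = 5 each), with a log2 fold change of 0.89 ± 0.43 (SE) at FDR = 0.866 (edgeR), and an exact permutation test gave P = 0.0476. The log2 fold change was 0.64 without water rat 2 and 1.38 without water rat 5.

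Of the metabolic genes, Dio2, the deiodinase that makes the active thyroid hormone, had an unadjusted P under 0.05. Dio2 measured 13.2, 14.9, 15.5, 15.0 and 19.8 CPM in the water rats 1 to 5 and 12.1, 22.2, 35.8, 23.9 and 22.4 CPM in the EtOH rats 1 to 5. The EtOH rats held both the lowest level, in rat 1, and the highest, in rat 3. The means were 15.7 ± 2.46 against 23.3 ± 8.40 CPM (SD, n = 5 each), with a log2 fold change of 0.57 ± 0.22 (SE) at FDR = 0.866 (edgeR), and an exact permutation test gave P = 0.119. The log2 fold change was 0.36 without EtOH rat 3. The folate enzyme Aldh1l1 (-0.070), the glycolytic aldolase Aldoc (-0.027) and the acyl-CoA synthetase Acsl6 (0.043) had log2 fold changes near 0.

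Among the secreted proteins, the serine protease Htra1 and the chaperone clusterin (Clu) were higher at the unadjusted level. Htra1 measured 154, 171, 172, 165 and 159 CPM in the water rats 1 to 5 and 214, 198, 159, 191 and 192 CPM in the EtOH rats 1 to 5. EtOH rat 3 lay within the water range and the other 4 EtOH rats lay above it. The means were 164 ± 7.85 against 191 ± 20.1 CPM (SD, n = 5 each), with a log2 fold change of 0.21 ± 0.075 (SE) at FDR = 0.863 (edgeR), and an exact permutation test gave P = 0.0397. Clu had a log2 fold change of 0.15 ± 0.065 (SE, FDR = 0.866). The lipid carrier Apoe (0.0073), the protease inhibitor Cst3 (-0.054), the matrix proteins Sparcl1 (-0.12) and Bcan (0.017), the phagocytic bridging protein Mfge8 (0.076), the hyaluronan binding chain Itih3 (-0.044) and tissue factor (F3, 0.17) stood at log2 fold changes that did not pass an unadjusted P of 0.05.

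The genes of glutamate and GABA handling showed no member past an unadjusted P of 0.05 in experiment 1. The 2 glutamate transporters had log2 fold changes of 0.00099 ± 0.063 (Slc1a2) and 0.10 ± 0.051 (Slc1a3), and glutamine synthetase (Glul) one of 0.012 ± 0.079 (SE). The 2 lowest log2 fold changes of all members also fell in this group. Slc6a11 measured 129, 166, 134, 115 and 85.4 CPM in the water rats 1 to 5 and 115, 85.3, 98.1, 120.5 and 124 CPM in the EtOH rats 1 to 5. This gene encodes a GABA transporter. All EtOH rats lay below the median of the water rats for it, and the groups overlapped. The log2 fold change was -0.21 ± 0.15 (SE) at FDR = 0.914 (edgeR), and an exact permutation test gave P = 0.333. Slc7a10 measured 48.3, 63.9, 58.0, 51.5 and 46.8 CPM in the water rats 1 to 5 and 43.1, 45.1, 48.8, 56.4 and 51.9 CPM in the EtOH rats 1 to 5. Slc7a10, a small neutral amino acid exchanger, likewise overlapped between groups, with a log2 fold change of -0.13 ± 0.11 (SE) at FDR = 0.93 (edgeR), and an exact permutation test gave P = 0.278. Without water rat 2 both values came closer to 0, at -0.090 and -0.061, and without water rat 5 that of Slc6a11 was -0.33. The transcription regulators Sox9 (0.12), Sox2 (0.14) and Id3 (0.10), and the signalling genes Fgfr3 (-0.12), Ntsr2 (0.0069), S100b (0.020) and Ndrg2 (-0.025), did not pass that level either.

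**Figure D2:**
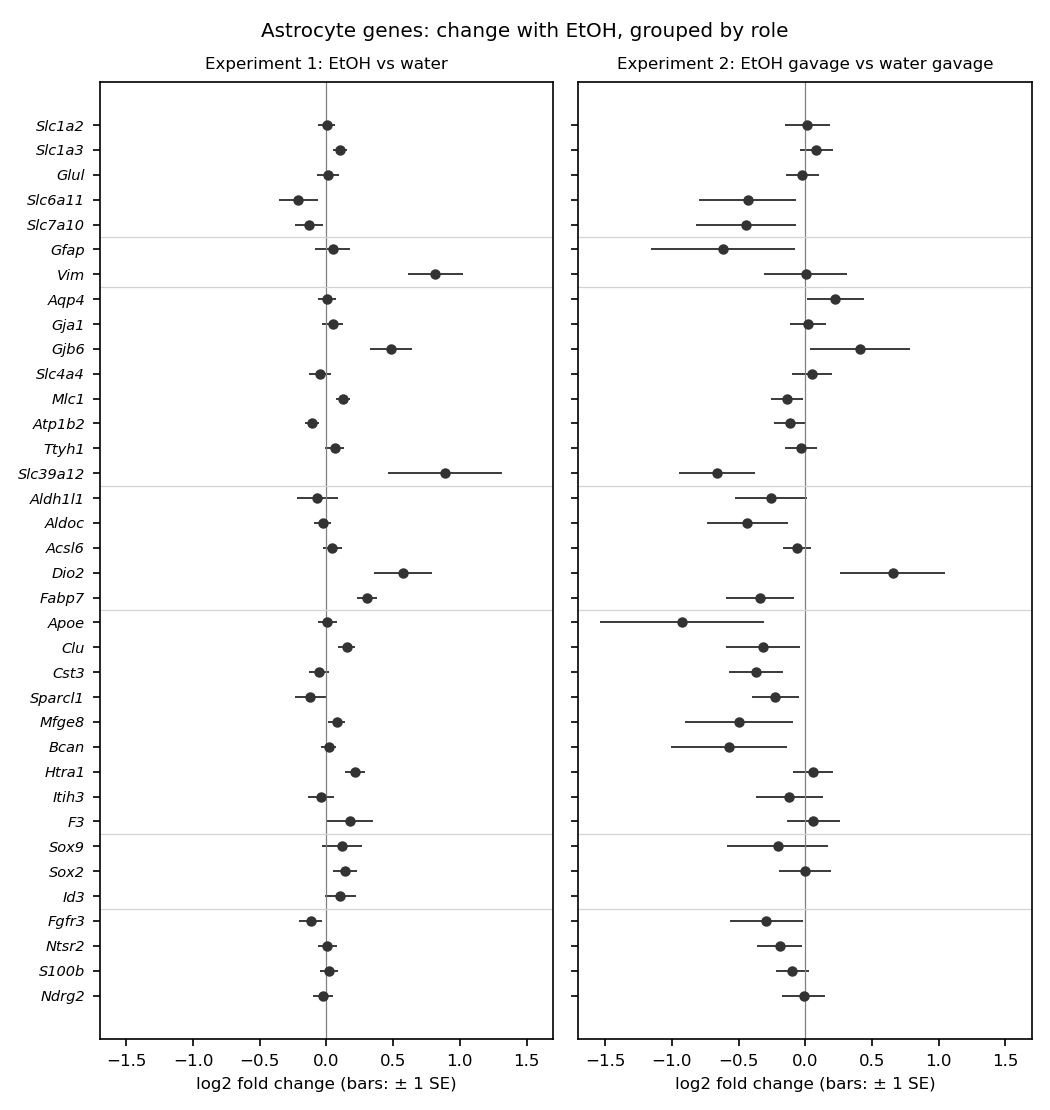
Log2 fold change of each astrocyte gene with EtOH (points, bars ± 1 SE), grouped by role, in experiment 1 (left, EtOH against water) and experiment 2 (right, EtOH gavage against water gavage). In experiment 1, 25 of 36 points lie above 0 and in experiment 2, 25 of 35 lie below 0, where the bars are wider (median SE 0.077 and 0.214).

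Experiment 2 asked what the added forced EtOH does in rats that all drank it. Again no astrocyte gene passed an FDR of 0.05 (0 of 35), and 0% of the 8655 tested genes did. DESeq2 again called 0 members. The one member at an unadjusted P under 0.05 was Slc39a12, which was lower after EtOH gavage (1 of 35, 2.86%, where 1.32% of all genes passed this level and 0.566% were lower). The count was 0 without water gavage rat 4, water gavage rat 5 or EtOH gavage rat 2, 2 without water gavage rat 1 or 6, and 3 without EtOH gavage rat 4, and 0 without the 3 libraries of highest outside share. The median log2 fold change of the members was -0.12 against -0.0061 over all genes, and 10 of 35 lay above 0 (28.6%, against 49.2% of all genes). That median was -0.053 without those 3 libraries, -0.066 without water gavage rat 3 and -0.19 without EtOH gavage rat 5. Values ran from -0.93 to 0.65 with a median SE of 0.214, and the lowest FDR of a member was 0.681.

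Slc39a12 measured 11.2 (lowest), 23.0 (median) and 35.3 (highest) CPM after water gavage and 8.71, 15.5 and 20.1 CPM after EtOH gavage. All 6 EtOH gavage rats lay below the median of the water gavage rats, and the groups overlapped. The means were 23.2 ± 8.75 against 14.6 ± 4.43 CPM (SD, n = 6 each), with a log2 fold change of -0.66 ± 0.29 (SE) at FDR = 0.681 (edgeR), and an exact permutation test gave P = 0.0736. The log2 fold change was -0.61 without the 3 libraries of highest outside share and -0.83 with that share as a covariate. Its direction was the opposite of that in experiment 1.

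The lowest log2 fold change of a member in experiment 2 belonged to Apoe, the main lipid carrier secreted by astrocytes. Apoe measured 131 (lowest), 367 (median) and 923 (highest) CPM after water gavage and 35.5, 210.4 and 631 CPM after EtOH gavage. The whole range over the 12 rats was 26.0-fold, against 1.27-fold over the 10 rats of experiment 1, and the lowest levels were those of EtOH gavage rats 1 and 2 and water gavage rat 1. The means were 455 ± 319.9 against 239 ± 209.8 CPM (SD, n = 6 each), with a log2 fold change of -0.93 ± 0.62 (SE) at FDR = 0.681 (edgeR), and an exact permutation test gave P = 0.167. Without these 3 libraries the log2 fold change was -0.66, without EtOH gavage rat 4 it was -1.50, without water gavage rat 2 it was -0.59, and with the outside share as a covariate it was -0.0034.

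Gfap measured 49.0 (lowest), 246 (median) and 379 (highest) CPM after water gavage and 37.2, 142 and 328 CPM after EtOH gavage. The 3 libraries with the highest outside share were also the 3 lowest in Gfap, at 37.2, 50.9 and 49.0 CPM, and the groups overlapped. The means of Gfap were 239.9 ± 124 against 156 ± 112 CPM (SD, n = 6 each), with a log2 fold change of -0.62 ± 0.54 (SE) at FDR = 0.681 (edgeR), and an exact permutation test gave P = 0.264. Without those 3 libraries the value was -0.39, without EtOH gavage rat 1 it was -0.41, without EtOH gavage rat 5 it was -0.98, and with the outside share as a covariate it turned to 0.13. The other filament gene, Vim, had a log2 fold change of 0.0037 ± 0.31 (SE).

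Cst3, the secreted protease inhibitor cystatin C, measured 551 (lowest), 748 (median) and 1008 (highest) CPM after water gavage and 372, 615 and 852 CPM after EtOH gavage. The groups overlapped and 1 of 6 EtOH gavage rats was above the control median. The means of Cst3 were 774 ± 183 against 599.8 ± 165 CPM (SD, n = 6 each), with a log2 fold change of -0.37 ± 0.20 (SE) at FDR = 0.681 (edgeR), and an exact permutation test gave P = 0.117. The value was -0.22 both without the 3 libraries of highest outside share and with that share as a covariate. Aldoc, the astrocyte form of aldolase, measured 598 (lowest), 1085 (median) and 1528 (highest) CPM after water gavage and 333, 853 and 1342 CPM after EtOH gavage. Here too 1 of 6 was above the control median. The means of Aldoc were 1069.7 ± 300.1 against 792 ± 361 CPM (SD, n = 6 each), with a log2 fold change of -0.43 ± 0.30 (SE) at FDR = 0.681 (edgeR), and an exact permutation test gave P = 0.175. The value was -0.23 without the 3 libraries of highest outside share, -0.27 without EtOH gavage rat 1 and -0.076 with the outside share as a covariate.

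Dio2 and Gjb6 had the highest log2 fold changes of the members in experiment 2. Dio2 measured 3.88 (lowest), 7.36 (median) and 12.9 (highest) CPM after water gavage and 5.28, 10.3 and 27.9 CPM after EtOH gavage. EtOH gavage rat 3 stood above all others and the groups overlapped. The means of Dio2 were 7.85 ± 3.11 against 12.4 ± 8.10 CPM (SD, n = 6 each), with a log2 fold change of 0.65 ± 0.39 (SE) at FDR = 0.681 (edgeR), and an exact permutation test gave P = 0.229. The log2 fold change was 0.24 without EtOH gavage rat 3, 0.65 without the 3 libraries of highest outside share and 0.46 with that share as a covariate. Gjb6 measured 24.7 (lowest), 43.6 (median) and 103 (highest) CPM after water gavage and 32.1, 72.5 and 102 CPM after EtOH gavage. Its highest levels were those of water gavage rat 1 and EtOH gavage rats 1 and 2, the libraries with the highest outside share. The means of Gjb6 were 50.3 ± 29.0 against 66.9 ± 27.8 CPM (SD, n = 6 each), with a log2 fold change of 0.41 ± 0.37 (SE) at FDR = 0.681 (edgeR), and an exact permutation test gave P = 0.281. The log2 fold change was 0.42 without those 3 libraries, 0.25 without EtOH gavage rat 1, 0.75 without water gavage rat 1 and 0.0062 with the outside share as a covariate.

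The remaining members of experiment 2 did not pass an unadjusted P of 0.05. Of the genes for glutamate and GABA handling, Slc6a11 and Slc7a10 had log2 fold changes of -0.43 and -0.45, while Slc1a2, Slc1a3 and Glul lay at 0.014, 0.084 and -0.023. Aqp4 had a value of 0.22, Gja1 of 0.020, Slc4a4 of 0.053 and Mlc1 of -0.14. The matrix and bridging proteins Bcan, Mfge8, Clu and Sparcl1 had values of -0.57, -0.50, -0.31 and -0.22. Without the 3 libraries of highest outside share the values were -0.15 for Slc6a11, -0.21 for Slc7a10, -0.34 for Bcan, -0.29 for Mfge8, -0.12 for Clu and -0.081 for Sparcl1, and with that share as a covariate they were -0.11, 0.044, 0.072, 0.097, 0.070 and -0.087. Fabp7, which had separated the groups of experiment 1, measured 43.9 (lowest), 85.8 (median) and 146 (highest) CPM after water gavage and 49.8, 66.1 and 94.7 CPM after EtOH gavage, with a log2 fold change of -0.34 ± 0.25 (SE). Htra1 had one of 0.058, Sox9 of -0.21 and S100b, a calcium binding protein, of -0.097. Id3, a target of bone morphogenetic protein signalling, was not tested and measured 1.42 (lowest), 6.26 (median) and 12.8 (highest) CPM after water gavage and 0.755, 4.27 and 10.7 CPM after EtOH gavage. Its levels overlapped between the groups.

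Whether a change differed between the experiments was tested as an interaction in one fit of all 22 rats over the 8176 genes tested in both. No member passed an FDR of 0.05 (0 of 35, and 0% of all genes). At an unadjusted P under 0.05, 2 of 35 members differed (5.71%, against 1.88% of all genes). Slc39a12 had a difference of -1.58 ± 0.60 (SE, experiment 2 minus experiment 1, log2) and Fabp7 of -0.64 ± 0.30, both at FDR = 0.814. Vim came next, at -0.81 ± 0.43, and did not pass that level. The experiments differ in strandedness of the libraries, sequencer, EtOH schedule and controls, which cannot be told apart from each other, so levels of a gene were not compared between them.

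An astrocyte score was formed for each rat as the mean over the tested members of the z-score of log2 CPM within the experiment. In experiment 1 the water rats 1 to 5 scored -0.011, 0.20, 0.11, -0.56 and -0.52, and the EtOH rats 1 to 5 scored 0.20, -0.61, -0.014, 0.66 and 0.55. EtOH rats 4 and 5 had the highest scores and EtOH rat 2 the lowest, so the groups overlapped. The means were -0.15 ± 0.36 in water and 0.15 ± 0.51 in EtOH rats (SD, n = 5 each), a difference of 0.31 that is below the SD of the EtOH rats and ranged from 0.18 without water rat 5 to 0.49 without EtOH rat 2. In experiment 2 the water gavage rats scored from -0.22 to 0.86 and the EtOH gavage rats from -0.69 to 0.52. The means were 0.16 ± 0.43 and -0.16 ± 0.48 (SD, n = 6 each), a difference of -0.32, which was -0.20 without the 3 libraries of highest outside share, -0.19 without water gavage rat 3 and -0.47 without EtOH gavage rat 4. In 4 EtOH gavage rats the score lay below that of every water gavage rat, and these included both EtOH gavage libraries with a high outside share. The summed level of the members was 25072 ± 1158 CPM in water and 25363 ± 1624 CPM in EtOH rats (SD, n = 5 each). It was 16823 ± 1960 CPM after water gavage and 15546 ± 1990 CPM after EtOH gavage (SD, n = 6 each), so in neither experiment did the means differ by more than the SD. Without the 3 libraries of highest outside share it was 17029 ± 2117 (n = 5) and 16264 ± 2095 CPM (n = 4).

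**Figure D3:**
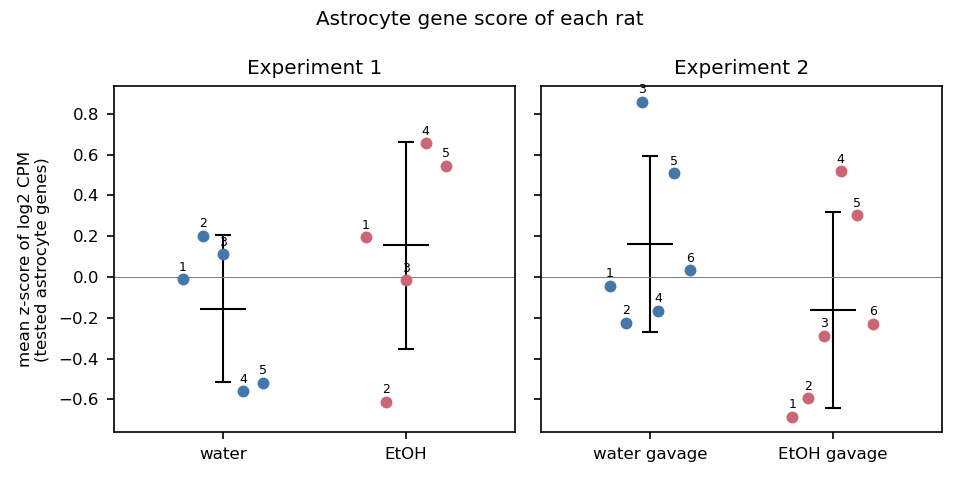
Astrocyte gene score (mean z-score of log2 CPM over the tested members, no unit) of each rat, numbered, in experiment 1 (left) and experiment 2 (right), with bars for the mean ± SD of each group. The groups overlap in both panels, from -0.61 to 0.66 in experiment 1 and from -0.69 to 0.86 in experiment 2.

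Astrocyte genes were then compared with each other across the rats of each experiment, after removal of the group means, to see how far they moved as a unit. The correlations over the list are descriptions across rats of one tissue and carry no test. In experiment 1 the median Pearson's r was 0.21 over 630 pairs of members, while it was -0.0010 over all pairs of the tested genes. A value above 0.7 was reached by 9.21% of member pairs and 2.37% of all pairs, and a value below -0.7 by 1.75% and 2.26%. The members most like the mean of the others were Fgfr3, a growth factor receptor (r = 0.93), Aldoc (0.92) and Ndrg2, a stress responsive gene abundant in astrocytes (0.89). Slc39a12 (-0.49), Vim (-0.24) and Fabp7 (-0.23) ran against the others. Vim and Fabp7, which were the members with the lowest P-values between the groups, were thus among the members least like the list within the groups. The single closest pair of members was Clu and Cst3 (r = 0.97), and the most opposed was Vim and Acsl6 (-0.93), both picked out after their values were seen.

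In experiment 2 the median over 595 member pairs was 0.23 (-0.00074 over all pairs, and 0.26 for the members without the 3 libraries of highest outside share), but the pairs of all genes were spread far more widely. Values above 0.7 made up 14.1% of member pairs and 16.8% of all pairs, and values below -0.7 made up 2.35% and 16.5%. Without the 3 libraries, 14.8% of member pairs lay above 0.7 and 1.01% below -0.7. The shares of all pairs were not computed for those rats, so the member shares cannot be set against a background there. S100b (0.93), Mlc1 (0.89), and Glul and the neurotensin receptor Ntsr2 (0.84 each) were most like the mean of the other members, and Slc39a12 (-0.31), Gjb6 (-0.29) and Aqp4 (-0.25) least. Apoe and Bcan formed the closest pair (r = 0.99) and Aqp4 and Bcan the most opposed (-0.83), again picked out after their values were seen. Without the 3 libraries these were 0.98 and -0.49. The pairwise values of the 595 pairs present in both experiments correlated weakly between them (Pearson's r = 0.22 across pairs, which share genes), and 62.7% had the same sign. Member pairs leaned positive in both experiments, which by itself favours the same sign, and pairs of all genes were not compared in this way.

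**Figure D4:**
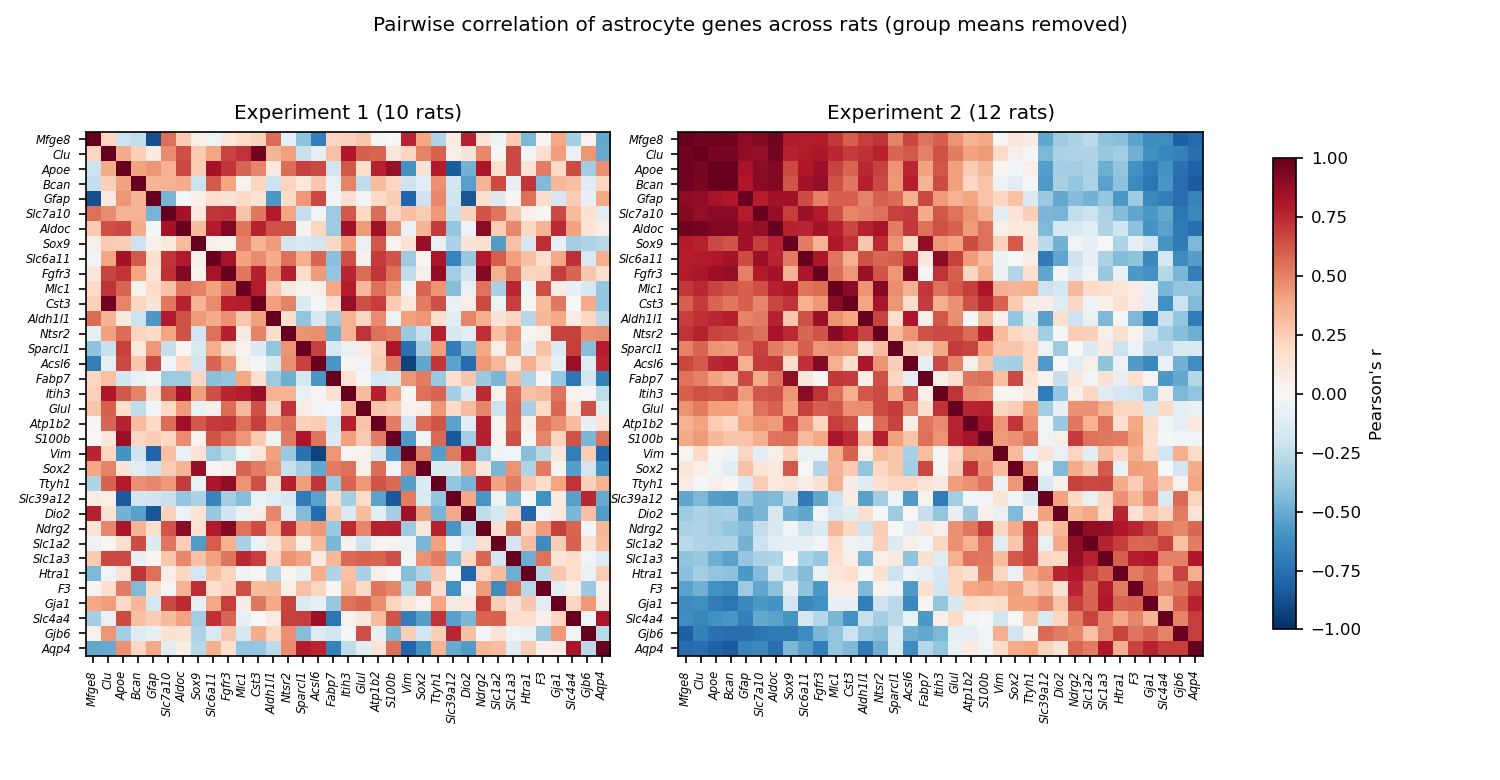
Pearson's r (colour, from -1 in blue to 1 in red) between each pair of the 35 astrocyte genes tested in both experiments, on log2 CPM with group means removed, across 10 rats of experiment 1 (left) and 12 rats of experiment 2 (right), with genes ordered by their correlation with the outside share in experiment 2. In experiment 2 a red block from Mfge8 to Fgfr3 at the top left and another from Ndrg2 to Aqp4 at the bottom right stand opposed to each other in blue, and experiment 1 shows no such blocks in this order. The order was taken from experiment 2 and favours blocks there.

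The map of pairwise correlations ordered the genes by their correlation with the outside share in experiment 2. That its blocks there follow the share is therefore set by the order. A change with the share was also no feature of the members alone, and was less common among them than among all tested genes. In an edgeR fit with group and outside share together, 16 of 35 members changed with the share at an FDR under 0.05 (45.7%), and so did 67.3% of all tested genes. Lower levels at a higher share were found for 12 members (34.3%, against 35.2% of all genes), which were Mfge8, Apoe, Clu, Bcan, Gfap, Slc7a10, Aldoc, Slc6a11, Sox9, Fgfr3, Mlc1 and Cst3. The change per percentage point of the share was -0.38 ± 0.039 (SE, log2) for Apoe, -0.33 ± 0.042 for Gfap, -0.26 ± 0.029 for Bcan and -0.25 ± 0.025 for Mfge8. Higher levels were found for 4 members (11.4%, against 32.1%), which were Aqp4 (0.098 ± 0.021), Gjb6 (0.17 ± 0.037), Slc4a4 (0.061 ± 0.016) and Gja1 (0.050 ± 0.016). Of the 8 tested members in the group for water and ion transport and cell contacts, 4 thus passed upward and Mlc1 downward, while Atp1b2, Ttyh1 and Slc39a12 did not pass. S100b (-0.015 ± 0.019) and Vim (-0.029 ± 0.050) did not pass the test. Without the 3 libraries of highest share, 5 of 35 members passed (14.3%, against 16.8% of all genes), and all 5, Apoe, Bcan, Slc7a10, Mfge8 and Clu, were lower at a higher share (11.6% of all genes). The slope of Apoe was then -0.39 ± 0.079 and that of Gjb6 0.16 ± 0.081, which did not pass. In experiment 1, where the share hardly varied, 0 of 36 members and 0% of all genes passed. A correlation with the share beyond 0.7 in either direction was seen for 37.1% of members and 60.0% of all genes in experiment 2, and for 8.33% and 6.86% in experiment 1. There the slope of Apoe was 0.12 ± 0.037, in the opposite direction to experiment 2 and not past the FDR.

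**Figure D5:**
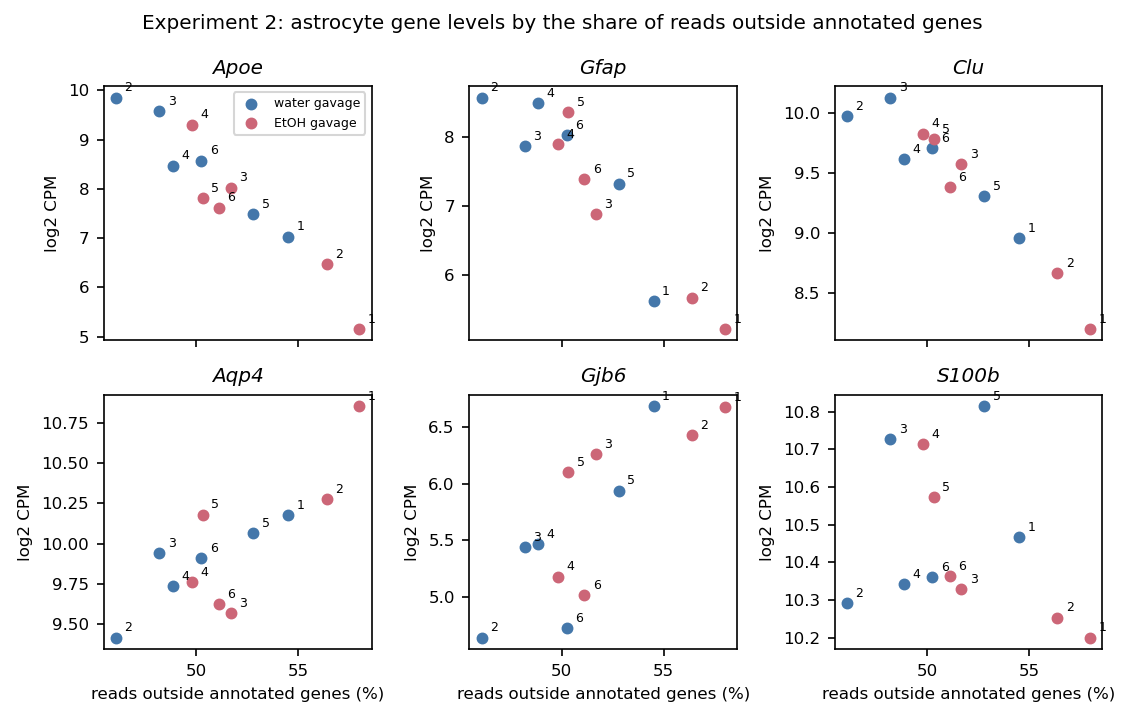
Level (log2 CPM) of Apoe, Gfap, Clu, Aqp4, Gjb6 and S100b in each rat of experiment 2 against the outside share (%). The axis names it reads outside annotated genes, which stands for reads assigned to no gene. Rat numbers are beside the points, blue for water gavage and red for EtOH gavage. Apoe, Gfap and Clu fall as the share grows from 46.1 to 58.0%, Aqp4 and Gjb6 rise, and S100b has no clear slope.

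With the outside share also removed, the median r of the members in experiment 2 was 0.32 (all pairs 0.0049), with 11.6% of member pairs above 0.7 (all pairs 3.50%) and 0.168% below -0.7 (2.82%). In experiment 1 the median r became 0.17 (all pairs -0.00089). The share was higher on average after EtOH gavage, and with the share as a covariate the log2 fold changes of Apoe, Aldoc and Gjb6 lay closer to 0 and that of Gfap turned, while Slc39a12 (-0.83), Dio2 (0.46) and Cst3 (-0.22) kept their direction. What the share reflects was not tested.

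Outside the list, the 10 tested genes closest to the member mean in experiment 1 were Slc18a2, Nap1l5, Stk16, Gpx3, Chst10, Hap1, St5, Gfra1, Fam3a and Calcr, with r from 0.92 to 0.95. Slc18a2 encodes the vesicular monoamine transporter and Hap1 a huntingtin partner, both neuronal. In experiment 2 the closest genes included mrpl24, Sparc, Dcps, Abhd14b, Akr1b1, Ppap2b, Cyp4f4, Naca and Tns3, with r from 0.86 to 0.93, among which the matrix protein Sparc is known from astrocytes. None of these genes stood in the set of experiment 1, and both sets were picked by the measure itself.

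Of 4 gene pairs with a shared role, 8 relations across rats were tested on log2 CPM with 100000 permutations (two-sided), adjusted over the 8. Apoe and Clu, both apolipoproteins, rose and fell together in experiment 2 (r = 0.95, permutation P = 1e-05, the smallest that can be reached, FDR = 8e-05, Spearman's rho = 0.95, FDR = 0.00016, 12 rats). The value was 0.92 without the 2 rats farthest from the median of Apoe and 0.95 with group means removed, and it was 0.87 without the 3 libraries of highest outside share and 0.53 with that share removed. In experiment 1 the same pair had r = 0.32 (permutation FDR = 0.475, rho = 0.14), which was 0.15 without EtOH rat 2 and 0.68 without water rat 1. The glutamate transporters Slc1a2 and Slc1a3 had r = 0.77 in experiment 2 (permutation P = 0.00328, FDR = 0.0131, rho = 0.71, FDR = 0.0521) and -0.12 in experiment 1 (FDR = 0.746, rho = -0.12). The relation of experiment 2 rests on few rats, since it was 0.48 without the 2 farthest and, without water gavage rat 2, 0.64 with FDR = 0.140. With the outside share removed it was 0.68. The connexins Gja1 and Gjb6 had r = 0.58 in experiment 2 (permutation FDR = 0.134, rho = 0.57), which was 0.34 without the 3 libraries and 0.13 with the outside share removed, and r = 0.43 in experiment 1 (FDR = 0.337, rho = 0.18), which was 0.0065 without the 2 farthest rats.

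Gfap and Vim, the filament genes that rise together in reactive astrocytes, had no positive relation past the test here. Their r was -0.52 in experiment 1 (permutation FDR = 0.246, rho = -0.65, FDR = 0.113) and 0.24 in experiment 2 (FDR = 0.516, rho = 0.21). With group means removed, the value in experiment 1 was -0.80 (permutation FDR = 0.0103). A permutation of centred values can give too low a P, since it may not count the means removed, and the pooled test was the planned one. Without EtOH rat 1, the rat with the highest Gfap level, the pooled value was -0.76 (FDR = 0.0474).

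Further astrocyte genes that are no members were counted in the same way. In experiment 1, 32 of 35 were tested, 0 passed an FDR of 0.05, and 3 were higher and 0 lower at an unadjusted P under 0.05 (3.02% and 2.54% of all tested genes). Their median log2 fold change was 0.080 and 26 of 32 lay above 0 (49.4% of all genes). The 3 were the peptide transporter Slc15a2 (log2 fold change 0.31 ± 0.098 SE), the glypican Gpc5 (0.23 ± 0.091) and the phospholipase Pla2g7 (0.82 ± 0.34), at FDR from 0.825 to 0.866. In experiment 2, 30 were tested with 0 past the FDR, the median was -0.14 and 6 lay above 0 (49.2% of all genes). Slc15a2 was again higher at the unadjusted level, which 0.751% of all genes reached in this direction (0.35 ± 0.14, FDR = 0.681), and its levels after EtOH gavage, 97.0 to 177 CPM, overlapped those after water gavage, 88.9 to 126 CPM. Megf10, a phagocytic receptor (-0.35 ± 0.18), and Papss2, a sulfation enzyme (0.35 ± 0.19), came next without reaching that level.

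Genes of reactive astrocytes were mostly too low to test, with 9 of 33 tested in experiment 1 and 13 in experiment 2, and none passed an FDR of 0.05. Cp, the ferroxidase ceruloplasmin, was the one gene of this list at an unadjusted P under 0.05 in experiment 1 (1 of 9, higher in EtOH rats, against 3.02% of all tested genes). Its levels were 8.52 to 19.7 CPM in water and 22.7 to 43.3 CPM in EtOH rats, which do not overlap (log2 fold change 0.89 ± 0.21 SE, FDR = 0.544). Among all tested genes, 0.451% stood apart in this direction. Cp is among the genes the study ranks highest on the same rats, so this is not independent evidence. Tm4sf1 (0.28 ± 0.18) and Cd44 (0.20 ± 0.18) followed in experiment 1, and Cd44 (0.24 ± 0.19), Fkbp5 (0.36 ± 0.32) and Gbp2 (-0.47 ± 0.45) led the list in experiment 2, without passing the unadjusted level. The median of the list was 0.057 in experiment 1 and 0.092 in experiment 2.

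Markers of other cell types were summed in the same rats of experiment 1, without a test of the sums, and no marker passed an FDR of 0.05. At an unadjusted P under 0.05, 3.02% of all tested genes were higher in EtOH rats and 2.54% were lower. The 5 neuroblast genes summed to 205 to 273 CPM in water and 276 to 383 CPM in EtOH rats without overlap, and the 3 that were tested, Dcx, Dlx1 and Cd24, were higher at an unadjusted P under 0.05. These 3 genes, like Pdgfra, are among those the study ranks highest on the same rats, so their counts are not independent evidence. The 6 endothelial genes in the files summed to 236 to 281 against 278 to 317 CPM, with 2 of 6, Cldn5 and Flt1, higher at that level. Ependymal genes summed to 18.2 to 66.4 against 46.8 to 85.4 CPM, with Foxj1 higher at that level (1 of 1 tested). Pericyte and fibroblast genes summed to 143 to 176 against 154 to 222 CPM, with Col1a1 higher (1 of 3). Oligodendrocyte precursor genes summed to 431 to 474 against 469 to 555 CPM, with Pdgfra higher (1 of 6). Of 13 neuron genes, 1 (Drd1, a dopamine receptor) was lower at that level, with a log2 fold change of -0.50 ± 0.17 (SE), and 2 lay above 0. The sums of all these lists but neuroblasts overlapped between groups. Neuron genes (6283 to 8278 against 6120 to 8116 CPM), oligodendrocyte genes (8607 to 12565 against 6642 to 12997 CPM), microglia genes (568 to 649 against 562 to 628 CPM) and choroid plexus genes (4.35 to 14.4 against 6.59 to 9.65 CPM) had no other gene at that level, and no choroid plexus gene was tested. Of all these lists only the fibroblast gene Col1a2 and the choroid plexus gene Otx2 were at 0 in every rat. The part of these cells in the values of Vim, Fabp7, Gjb6 and Cp was not tested.

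In experiment 2 no tested gene of the neuroblast, endothelial, oligodendrocyte, oligodendrocyte precursor, microglia or pericyte and fibroblast lists passed an unadjusted P of 0.05. At that level 1 of 13 neuron genes was lower, against 0.566% of all tested genes lower and 1.32% in either direction. Neuroblast genes summed to 168 to 305 CPM after water gavage and 205 to 388 CPM after EtOH gavage, endothelial genes to 189 to 327 and 188 to 240 CPM, microglia genes to 402 to 738 and 398 to 579 CPM, oligodendrocyte precursor genes to 282 to 352 and 243 to 328 CPM, and pericyte and fibroblast genes to 77.3 to 200.4 and 82.7 to 374 CPM. Ependymal genes (10.2 to 55.3 and 10.2 to 28.9 CPM), choroid plexus genes (1.92 to 10.1 and 3.29 to 21.3 CPM), neuron genes (7575 to 9341 and 7352 to 8591 CPM) and oligodendrocyte genes (10723 to 17631 and 9464 to 12730 CPM) overlapped as well. In oligodendrocyte precursor genes the median log2 fold change was -0.46 (1 of 6 above 0) and in microglia genes -0.31 (2 of 9). It was -0.18 in endothelial genes (1 of 6) and -0.13 in oligodendrocyte genes (3 of 10), all below the -0.12 of the astrocyte members. It was above 0 in neuron genes (0.038, 7 of 13), pericyte and fibroblast genes (0.28, 2 of 4) and neuroblast genes (0.35, 3 of 3). The cause was not tested.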

How the data were processed

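The authors aligned paired reads of polyA+ libraries to the rat genome rn6 (Tophat2 2.0.13 per the labels) and deposited raw counts per gene from htseq-count (HTSeq 0.5.3p3 and 0.6.0 per the labels), without normalization or filtering. Options of htseq-count and the annotation used are not given in the sources used here. Multiply mapped reads were left uncounted, which lowers genes that have near-identical copies. The libraries of experiment 1 do not keep the strand, so overlapping genes cannot be told apart there. The 5 summary lines of each file stayed out of library sizes and tests, and the line of reads assigned to no gene gave the outside share.

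From the counts, each experiment was fitted on its own in edgeR 4.0.16 (R 4.3.3, limma 3.58.1) with TMM, glmQLFit in its legacy mode and glmQLFTest, over the 8655 genes whose base mean was above the median of all listed genes (43.6 in experiment 1, 66.4 in experiment 2), with Benjamini-Hochberg adjustment. Log2 CPM used a prior count of 2 and served for correlations and exact permutation tests of single genes. The P-values of group comparisons set a difference between groups against the spread between rats. Members and lists were chosen with earlier results of these data known. Statistics in full are given for Gfap, the 5 members with the lowest P-value and the 2 highest and 2 lowest log2 fold changes of each experiment. The numbers that rats share between groups do not pair them. Alternatives were DESeq2 1.42.0, other normalizations, filters and prior counts, the newer mode of glmQLFit, one fit of all groups, a replicate block, the outside share as a covariate, a list without members that other cells express, and each rat left out in turn. Further choices that rest on the outside share were added after the data had been seen: leaving out the 3 highest libraries, removing the share before correlation, and testing its coefficient with and without those libraries. The fits were also run on simulated counts, drawn independently for each gene. These held no variation that genes share across rats, such as that with the outside share, so the run does not cover it. Promoters came from RefSeq tables. A gene close to the member mean is not reported here.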

Additional observations from a re-analysis of the deposited data

Results flagged for a closer look

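Of 44 groups of values scanned for a single rat far from the others, 2 held one, where chance gives about 2.2. Gfap in EtOH rat 1 of experiment 1 measured 606 CPM, while the nearest EtOH rat measured 400.2 CPM and the lowest 333 CPM. The same rat had the lowest levels of Vim and Dio2 among the EtOH rats. Dio2 in EtOH gavage rat 3 of experiment 2 measured 27.9 CPM, with 12.7 CPM in the nearest rat of the group and 5.28 CPM in the lowest.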

How the results depend on the processing

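No member passed an FDR of 0.05 under any alternative run, in either experiment or in the difference between them. The lowest FDR of a member was 0.0926 in experiment 1 (without water rat 5), 0.399 in experiment 2 and 0.494 for the difference (both without EtOH gavage rat 4). The number of members at an unadjusted P under 0.05 ranged from 1 to 9 in experiment 1 and from 0 to 3 in experiment 2 over all alternatives. The replicate block gave 0 calls in both experiments and 2 members at the unadjusted level in experiment 2. Same-numbered rats of both groups deviated with correlations of -0.13 to 0.14 in experiment 1 and -0.76 to 0.84 in experiment 2, so the number was not taken as a pairing. In experiment 1 the log2 fold change of Gfap ranged from -0.13 to 0.12 with each rat left out, in experiment 2 it was 0.13 with the outside share as a covariate, and the cause was not tested. The median pairwise correlation of members in experiment 1 ranged from 0.13 to 0.22 with each rat left out, and in experiment 2 it was 0.32 with the outside share removed. For Gfap and Vim in experiment 1, r was -0.80 with group means removed and ranged from -0.76 to -0.40 with each rat left out. For Slc1a2 and Slc1a3 it ranged from -0.33 to 0.083 in experiment 1 and from 0.64 to 0.87 in experiment 2. The log2 fold change of Slc39a12 in experiment 1 could not be tested with a minimum of 10 counts in every sample. Counting error limits low genes most, such as Slc39a12, Dio2 and Id3.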
